A study of Mus musculus with 16 samples.

Results

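A set of 10 genes that mark the subsets of dendritic cells was followed through 16 mouse mammary tumours: Xcr1, Clec9a and Batf3 for type 1 conventional dendritic cells (cDC1), Zbtb46, Flt3 and Itgax for dendritic cells in general, Cd209a for type 2 conventional (cDC2) and monocyte-derived cells, Siglech for plasmacytoid cells, and Fscn1 and Ccr7 for mature cells that migrate to lymph nodes. They were chosen by name as subset markers, with earlier results of these data known. They are 10 of the 47311 genes to which the transcripts of the deposited tables were matched. The tumours grew from E0771-luciferase cells, a mouse mammary cancer line with a luciferase reporter, of which 250000 were placed into a mammary gland of each female C57BL/6J mouse. All mice ate a high-fat diet (60% of calories as fat) between week 8 and week 26 of age, so lean animals were not part of the comparison. Starting 3 days after the cells, 8 mice received anti-PD-1 and 8 mice an IgG2a isotype control, each 200 ug per mouse into the peritoneum and repeated every 3 days up to day 21. Anti-PD-1 blocks an inhibitory receptor of T cells.

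Every tumour came from the same cell line in its own animal, and each animal has its own number in the labels. Bulk RNA of tumour tissue was sequenced, so fewer cells of a type and less RNA per cell cannot be told apart, and no cell was sorted. The tables held 59036535 to 82591064 estimated reads per tumour, and levels are given as CPM, reads scaled to a common library size, unless TPM, which also divides by transcript length, is named. Earlier results set 3 tumours apart from the other 13. Relative to the median tumour, IgG2a replicate 7 was 8.06 log2 units higher in adipocyte genes, 8.03 in erythroid genes, 3.62 in endothelial genes and 2.02 in macrophage genes, IgG2a replicate 3 was 12.10 higher in skeletal muscle genes, and anti-PD-1 replicate 6 had 38993 transcripts detected against 47997 to 55476 in the others. The leukocyte gene Ptprc had a log2 CPM of 6.16 to 7.79 in every tumour.

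Dendritic cells take up antigen and show its peptides to T cells. The cDC1 lineage depends on the transcription factor BATF3 and cross-presents antigen from dead cells to CD8 T cells, a task in which CLEC9A binds the exposed actin of dying cells and XCR1 senses the chemokine XCL1 that T cells and natural killer cells release. ZBTB46 is a transcription factor of the conventional lineage that endothelial cells also make, FLT3 is the receptor for the growth factor that maintains dendritic cells, and ITGAX is the integrin subunit CD11c, shared with many macrophages. SIGLECH is a lectin of plasmacytoid cells, which make type I interferon, FSCN1 bundles actin in mature dendritic cells and in many tumour cells, and CCR7 guides mature dendritic cells and naive T cells toward lymph nodes.

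Promoter sequences of the 5 genes on which the results below turn are printed first, from RefSeq on GRCm38.p6, each covering the 250 bases before the listed start of transcription and the first 20 after it. Xcr1 and Siglech are shown since they varied together most closely of all members, Clec9a since it did not vary with Xcr1, and Itgax and Zbtb46 since their windows hold a match to the AP-1 and BATF motif. Capitals mark matches and all other bases are in lower case. The windows are chr9:123862010-123862279 on the minus strand for Xcr1, chr7:55767934-55768203 on the plus strand for Siglech, chr6:129408612-129408881 on the plus strand for Clec9a, chr7:128129300-128129569 on the plus strand for Itgax and chr2:181424369-181424638 on the minus strand for Zbtb46. The Zbtb46 window lies inside the gene, which GENCODE places at 181387762 to 181459426 on the minus strand. Its listed start is thus not the start of the gene in that annotation, and which start these tumours used was not tested.
Xcr1: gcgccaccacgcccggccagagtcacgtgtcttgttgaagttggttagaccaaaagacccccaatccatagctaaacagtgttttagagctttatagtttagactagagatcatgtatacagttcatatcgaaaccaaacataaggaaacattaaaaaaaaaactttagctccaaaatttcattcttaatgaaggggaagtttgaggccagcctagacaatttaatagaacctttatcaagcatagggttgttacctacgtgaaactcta
Siglech: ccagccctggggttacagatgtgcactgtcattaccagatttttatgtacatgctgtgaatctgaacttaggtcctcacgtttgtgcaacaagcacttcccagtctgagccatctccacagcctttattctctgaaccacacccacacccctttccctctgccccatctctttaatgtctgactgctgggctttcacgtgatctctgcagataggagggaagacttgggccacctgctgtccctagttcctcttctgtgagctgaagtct
Clec9a: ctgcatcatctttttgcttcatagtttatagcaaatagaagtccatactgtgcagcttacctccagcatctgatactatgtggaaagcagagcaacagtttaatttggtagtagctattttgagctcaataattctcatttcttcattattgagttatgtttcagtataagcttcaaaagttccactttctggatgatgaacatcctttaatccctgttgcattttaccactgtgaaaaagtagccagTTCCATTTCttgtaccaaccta
Itgax: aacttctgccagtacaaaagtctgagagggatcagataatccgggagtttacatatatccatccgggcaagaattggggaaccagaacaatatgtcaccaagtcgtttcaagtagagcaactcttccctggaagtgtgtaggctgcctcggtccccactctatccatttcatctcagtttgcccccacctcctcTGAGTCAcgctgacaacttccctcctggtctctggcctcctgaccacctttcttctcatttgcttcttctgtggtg
Zbtb46: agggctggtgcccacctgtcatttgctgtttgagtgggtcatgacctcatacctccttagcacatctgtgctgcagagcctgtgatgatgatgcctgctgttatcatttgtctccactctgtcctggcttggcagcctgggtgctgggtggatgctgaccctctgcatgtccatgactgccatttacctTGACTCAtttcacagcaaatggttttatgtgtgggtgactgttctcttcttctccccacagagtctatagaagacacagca

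The windows searched ran from 250 bases before to 50 after the start, 300 bases in all, on both strands, and promoters were found for 9 of the 10 members. The AP-1 and BATF motif TGANTCA was present in 7.81% of 32851 mouse promoters of that length. Itgax held TGAGTCA from base -56 and Zbtb46 TGACTCA from base -61, counted from the listed start, which for Zbtb46 lies inside the gene. The interferon-stimulated element GAAANNGAA was present in 8.56% of promoters, and Clec9a held it on the minus strand, printed above as TTCCATTTC, from base -2. The PU.1 motif GAGGAAGT, present in 3.2% of promoters, was found in 0 members. The letters of these 3 motifs were not in the windows of Xcr1, Siglech, Batf3, Flt3, Fscn1 and Cd209a, and a match or its lack is a description of letters only.

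On the TPM scale Fscn1 stood far above the others, with a median of 441 TPM over the tumours that placed it above 98.2% of all genes tested. Itgax followed at a median of 8.68 TPM. Batf3 was at a median of 4.28, Ccr7 at 3.60, Clec9a at 2.54 and Zbtb46 at 2.11 TPM. Flt3 was at 0.485, Siglech at 0.439, Cd209a at 0.287 and Xcr1 at 0.263 TPM, the lowest of the members. Neighbours in this order were compared within tumours with an exact two-sided sign-flip permutation test of log2(TPM + 0.1), adjusted over the 9 steps. Only 3 steps passed an adjusted p of 0.05: Fscn1 over Itgax (adjusted p = 0.000137, 16 of 16 tumours), Itgax over Batf3 (adjusted p = 0.00146, 15 of 16 tumours) and Zbtb46 over Flt3 (adjusted p = 0.000137, 16 of 16 tumours). The neighbouring steps from Batf3 through Ccr7 and Clec9a to Zbtb46, and those from Flt3 through Siglech and Cd209a to Xcr1, did not pass, and genes that are not neighbours in the order were not tested against each other.

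**Figure D1:**
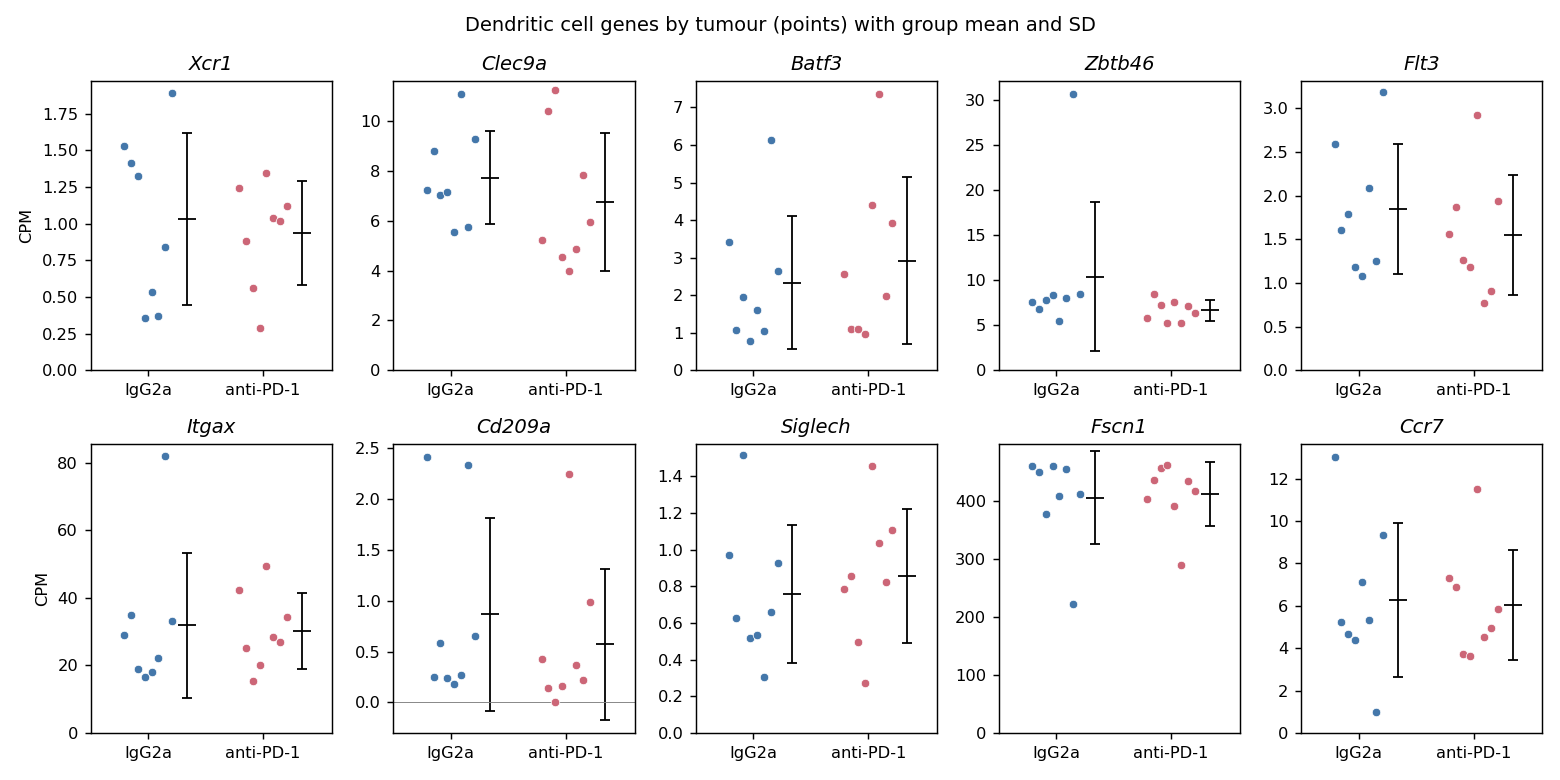
CPM of each gene (linear axis, a scale of its own in each panel) in the 8 IgG2a tumours (blue) and the 8 anti-PD-1 tumours (red), with a bar for the group mean and its SD. The groups overlap for all 10 genes, and IgG2a replicate 7 is the tumour at 30.6 CPM of Zbtb46 and 82.0 CPM of Itgax.

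No member passed the test between anti-PD-1 and IgG2a. Of the 10 genes, 0 passed edgeR's quasi-likelihood test at a Benjamini-Hochberg adjusted p of 0.05, as for all 16154 genes tested, where the share called was 0.0%. At an unadjusted p under 0.05 the count of members was again 0, against 11.4% of all genes. DESeq2 called 4 genes, none of them a member, and limma-voom called 0. Estimates were higher under anti-PD-1 for 3 members and lower for 7, and their median log2 fold change was -0.11, while 43.1% of all genes had a higher estimate and their median was -0.06. The CPM of the groups overlapped for 10 of 10 members, and 0.0124% of all genes had groups that did not overlap. On counts simulated from these tumours edgeR recovered 8.0% of genes changed 1.5-fold, 38.0% of those changed 2-fold and 72.0% of those changed 4-fold. Recovery of the 10 members at their own read counts was not tested.

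Of the cDC1 genes, Xcr1 (chromosome 9, 123852315 to 123862029, minus strand) had 1095 reads over all tumours. It ran from 0.288 to 1.34 CPM with a median of 1.03 under anti-PD-1, and from 0.354 to 1.89 with a median of 1.08 under IgG2a. The lowest tumours of the groups were thus nearly alike and the highest tumour was an IgG2a tumour, replicate 8. Mean levels were 0.937 ± 0.354 CPM in treated and 1.03 ± 0.586 CPM in control tumours (SD, n = 8 each), and the edgeR log2 fold change was -0.14 ± 0.40 (SE), with a 95% interval of -0.98 to 0.70.

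Clec9a (chromosome 6, 129408862 to 129424763, plus strand) was higher, at 3.97 to 11.3 CPM under anti-PD-1 with a median of 5.60, and at 5.54 to 11.1 CPM under IgG2a with a median of 7.21. In 5 of 8 treated tumours it lay below the IgG2a median. The log2 fold change was -0.20 ± 0.24 (SE), with an interval of -0.69 to 0.30. Batf3 (chromosome 1, 191097847 to 191108945, plus strand) ran from 0.961 to 7.36 CPM under anti-PD-1, with a median of 2.27, and from 0.766 to 6.14 under IgG2a, with a median of 1.77. Its highest tumours were anti-PD-1 replicate 6 and IgG2a replicate 7, both among the 3 set apart. The log2 fold change of Batf3 was 0.33 ± 0.50 (SE), 0.71 without IgG2a replicate 7 and -0.03 without anti-PD-1 replicate 6. Of the Batf3 reads, 64.4% lay on the protein-coding transcript Batf3-201, and the rest on transcripts annotated as processed or with a retained intron.

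Among the genes of dendritic cells in general, Zbtb46 (chromosome 2, 181387762 to 181459426, minus strand) had the largest estimate relative to its error. It lay between 5.19 and 8.46 CPM under anti-PD-1, with a median of 6.76, and between 5.48 and 30.6 under IgG2a, with a median of 7.91. A single tumour, IgG2a replicate 7, was at 30.6, and the other 7 IgG2a tumours reached 8.43 CPM at most. The edgeR log2 fold change was -0.65 ± 0.31 (SE), with an unadjusted p of 0.0508 and an adjusted p of 0.434, and it was -0.18 without that tumour. In that tumour the endothelial list lay 3.62 log2 units above the median, and the part of endothelial RNA in the level of Zbtb46 was not tested.

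Flt3 (chromosome 5, 147330741 to 147400489, minus strand) ran from 0.775 to 2.92 CPM under anti-PD-1 and from 1.09 to 3.19 under IgG2a, with medians of 1.41 and 1.70. Its highest tumours, IgG2a replicate 8 at 3.19 and anti-PD-1 replicate 5 at 2.92 CPM, came from different groups. The log2 fold change was -0.26 ± 0.31 (SE). Itgax (chromosome 7, 128129547 to 128150657, plus strand) ran from 15.3 to 49.3 CPM under anti-PD-1 with a median of 27.7. Under IgG2a it ran from 16.5 to 82.0 CPM with a median of 25.6, the top value again from replicate 7. Its log2 fold change was -0.08 ± 0.32 (SE) and became 0.29, the opposite sign, without that tumour.

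Cd209a, which encodes a lectin of cDC2 and monocyte-derived cells (chromosome 8, 3743397 to 3748984, minus strand), was the most variable member, with an SD of 1.66 log2 units over the tumours, more than in 95.3% of all genes. Cd209a had 773 reads over all tumours, so counting error is part of this SD, and the rank is against genes of every level. No read was assigned to it in anti-PD-1 replicate 3, where a count of 0 allows up to 0.0466 CPM (3 reads, counting error only). The remaining anti-PD-1 tumours reached 2.25 CPM and the IgG2a tumours ran from 0.178 to 2.42 CPM, with group medians of 0.296 and 0.427. Of the tumours 3 stood above 2 CPM: anti-PD-1 replicate 5 and IgG2a replicates 1 and 7. The log2 fold change was -0.60 ± 0.83 (SE), with an interval of -2.36 to 1.16. It was -1.38 without anti-PD-1 replicate 5 and -0.17 without IgG2a replicate 1, tumours among the highest of their groups. Cd209a belongs to a family of related genes, and how the authors' counting split reads among them was not tested.

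The plasmacytoid gene Siglech (chromosome 7, 55768178 to 55778925, plus strand) had 891 reads in all. It ran from 0.272 to 1.46 CPM under anti-PD-1 and from 0.304 to 1.52 under IgG2a, with medians of 0.840 and 0.645. Of the treated tumours, 6 of 8 lay above the IgG2a median, and the log2 fold change was 0.17 ± 0.36 (SE), with an interval of -0.59 to 0.93. A transcript annotated for nonsense-mediated decay, Siglech-204, held 56.0% of its reads over all tumours, with a median of 50.7% and a range from 0% in anti-PD-1 replicate 3 and IgG2a replicate 6 to 100% in anti-PD-1 replicate 6.

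The pair of genes listed for mature dendritic cells behaved unlike each other. Many tumour cells also make Fscn1, and which cells gave the Fscn1 reads was not tested. Fscn1 (chromosome 5, 142960343 to 142973185, plus strand) was the steadiest member, with an SD of 0.28 log2 units: it ran from 289 to 463 CPM under anti-PD-1 and from 222 to 460 under IgG2a, with medians of 427 and 431. Its lowest tumours were IgG2a replicate 7 at 222 and anti-PD-1 replicate 6 at 289 CPM. The log2 fold change was 0.02 ± 0.14 (SE), with an interval of -0.27 to 0.31. In anti-PD-1 replicate 6 the transcript Fscn1-207 held 68.8% of the Fscn1 reads and Fscn1-201 held 31.2%, whereas in the other 15 tumours Fscn1-207 held 2.07 to 24.3%. Ccr7 (chromosome 11, 99144196 to 99155077, minus strand) ran from 3.65 to 11.5 CPM under anti-PD-1 and from 0.967 to 13.04 under IgG2a, with medians of 5.39 and 5.29. IgG2a replicate 7 was its lowest tumour, and the log2 fold change was -0.05 ± 0.38 (SE).

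**Figure D2:**
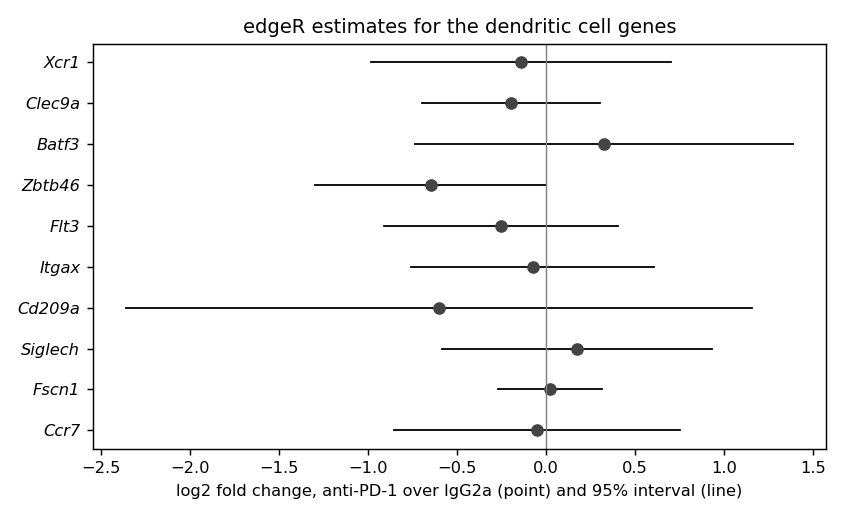
edgeR log2 fold change of each gene, anti-PD-1 over IgG2a (point, horizontal axis in log2 units), with its 95% interval (line). Every interval includes 0; that of Fscn1, from -0.27 to 0.31, is the narrowest and that of Cd209a, from -2.36 to 1.16, the widest.

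Relation to T cells was measured against the mean log2 CPM of 9 T cell genes (among them the CD3 chains Cd3d, Cd3e and Cd3g, the kinase Lck and the costimulatory receptor Cd28), which ran from 0.35 to 2.84. Xcr1, Siglech, Ccr7 and Flt3 rose with this list over the tumours, and Clec9a did not. Each r is a Pearson correlation of log2 CPM over 16 tumours and each rho a Spearman correlation, with two-sided permutation p-values from 100000 resamples, adjusted over 70 relations (10 genes with 7 cell type lists). An r of at least 0.5 was reached by 6 of the 10 members, against 2.83% of all genes, and the median r was 0.546 against 0.013. The levels being compared come from the same libraries. All genes, the background here, are genes of every cell type, and the part of overall leukocyte content in these r was not tested.

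For Xcr1 r was 0.768 (p = 0.00049, adjusted p = 0.0107 by permutation) and rho 0.859 (p = 5e-05, adjusted p = 0.0035 by permutation). It was 0.758 without the 2 tumours farthest from the median of the list, 0.674 within anti-PD-1 and 0.867 within IgG2a. For Siglech r was 0.691 (permutation p = 0.00265, adjusted p = 0.0167) and rho 0.668 (permutation p = 0.00567, adjusted p = 0.0339), with 0.631 without the 2 farthest tumours, 0.744 within anti-PD-1 and 0.623 within IgG2a. The r of the cDC1 chemokine receptor and of the plasmacytoid lectin with the T cell genes was thus positive in each treatment group, where it was not tested.

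For Ccr7 r was 0.641 (permutation p = 0.00698, adjusted p = 0.0326) and rho 0.729 (permutation p = 0.00182, adjusted p = 0.0273), with 0.630 without the 2 farthest tumours, 0.752 within anti-PD-1 and 0.633 within IgG2a. T cells also make Ccr7, and which cells gave the Ccr7 reads was not tested. For Flt3 r was 0.600 (permutation p = 0.0144, adjusted p = 0.0490) and rho 0.591 (permutation p = 0.018, adjusted p = 0.0574), so the rank correlation did not pass, and r was 0.477 without the 2 farthest tumours. The call of Flt3 was lost in 14 of 22 alternatives, that of Ccr7 in 4, that of Siglech in 1 and that of Xcr1 in 0. Without anti-PD-1 replicate 5, the tumour highest on the T cell list, 1 of the 10 members passed in place of 4, and 2 passed without IgG2a replicate 1, IgG2a replicate 8 or anti-PD-1 replicate 4.

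No tumour lay between 1.26 and 1.73 on the T cell list, so r was also taken within the 8 tumours below and the 8 above this gap, a split chosen after the values were seen. Below the gap r was 0.258 for Xcr1, -0.023 for Siglech, 0.369 for Ccr7 and -0.029 for Flt3. Above it r was 0.254 for Xcr1, 0.479 for Siglech, 0.719 for Ccr7 and 0.680 for Flt3. Splitting on the list narrows its range and lowers r by construction, so these values are a description and bear on no relation. Animal numbers fall into a lower range of 6 tumours and a higher range of 10, and within these r was 0.894 and 0.750 for Xcr1, 0.446 and 0.746 for Siglech, 0.512 and 0.662 for Ccr7, and 0.549 and 0.602 for Flt3.

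**Figure D3:**
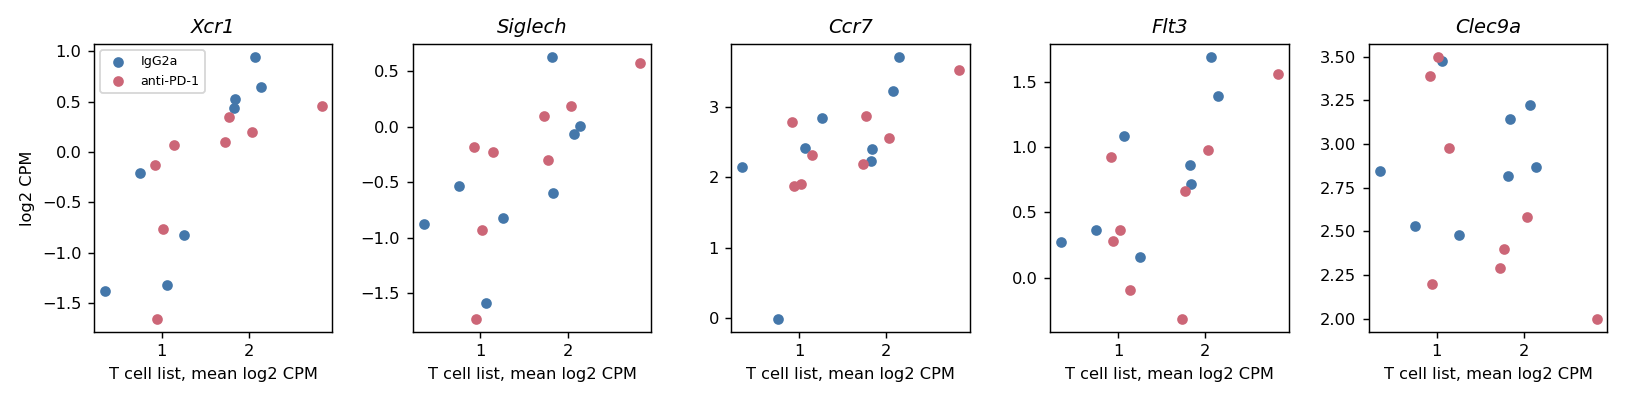
Log2 CPM of 5 genes (vertical axes, a scale of its own in each panel) against the mean log2 CPM of the T cell list (horizontal axis), 1 point for each of the 16 tumours, IgG2a in blue and anti-PD-1 in red. Xcr1, with r of 0.768, climbs across the gap between 1.26 and 1.73, and Clec9a, with r of -0.326, does not.

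The remaining members did not pass with all 16 tumours. Cd209a had an r of 0.548 with the T cell list (permutation p = 0.0266, adjusted p = 0.0809) and Batf3 one of 0.543 (permutation p = 0.03, adjusted p = 0.0831). Itgax had one of 0.374 (adjusted p = 0.252 by permutation), Clec9a one of -0.326 (adjusted p = 0.311 by permutation), Zbtb46 one of -0.288 and Fscn1 one of 0.021. Without the 3 tumours set apart the picture of the myeloid genes changed: r was 0.873 for Batf3, 0.852 for Itgax and 0.760 for Cd209a, and it was -0.626 for Fscn1. Among those 13 tumours r was 0.795 for Xcr1, 0.760 for Ccr7, 0.724 for Siglech and 0.719 for Flt3, and 7 of 10 members reached an r of 0.5, as did 16.5% of all genes. For Clec9a r was -0.669 within anti-PD-1 and 0.269 within IgG2a; this difference was not tested.

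**Figure D4:**
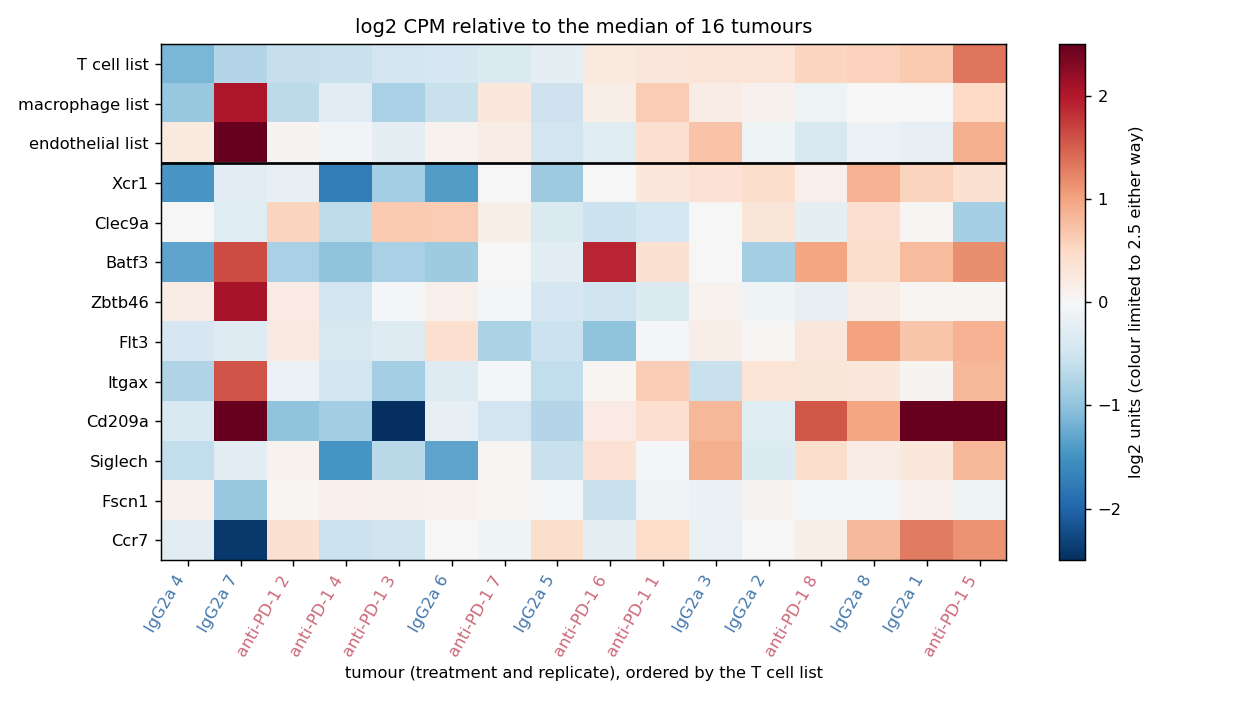
Log2 CPM relative to the median of the tumours for 3 cell type lists (top rows) and the 10 genes (rows), with the 16 tumours (columns, label colour by treatment) ordered by the T cell list and colour limited to 2.5 log2 units either way. IgG2a replicate 7, second from the left, has high macrophage and endothelial lists with high Zbtb46, Itgax and Batf3 and low Ccr7.

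Against the other cell type lists the genes divided. Itgax followed the 8 macrophage genes most closely, with r of 0.882 (permutation p = 3e-05, adjusted p = 0.0021), rho of 0.759 (permutation p = 0.00113, adjusted p = 0.0264), r of 0.749 without the 2 farthest tumours and 0.889 without the 3 set apart. Batf3 had an r of 0.713 with the same genes (adjusted p = 0.0132 by permutation; rho 0.682) and Cd209a one of 0.664 (adjusted p = 0.0326 by permutation; rho 0.609, adjusted p = 0.0517). Fscn1 ran against them, at -0.793 (adjusted p = 0.0163 by permutation; rho -0.729), though r was -0.427 without the 2 farthest tumours. Xcr1 was at 0.452, Siglech at 0.346 and Flt3 at 0.012, and for these 3 genes the macrophage relation did not pass over the 16 tumours. Without the 3 tumours set apart it rose to 0.702 for Xcr1, 0.562 for Siglech and 0.319 for Flt3.

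With the 2 regulatory T cell genes Foxp3 and Ikzf2, Flt3 had an r of 0.709 (permutation p = 0.00225, adjusted p = 0.0163; rho 0.665) and Ccr7 one of 0.704 (permutation p = 0.00124, adjusted p = 0.0145; rho 0.638). Both kept a positive r within each treatment, of 0.633 and 0.791 for Flt3 and of 0.348 and 0.857 for Ccr7 in anti-PD-1 and IgG2a. Ikzf2 averaged 17.0 CPM under anti-PD-1 and 19.6 under IgG2a, against 1.68 and 1.90 for Foxp3. Which cells gave the Ikzf2 reads was not tested. With Cd8a and Cd8b1 no member passed on r, and Xcr1 had an r of 0.432 (adjusted p = 0.174 by permutation) and a rho of 0.668 (adjusted p = 0.0339 by permutation). With the 4 B cell genes tested, Xcr1 had an r of 0.639 (adjusted p = 0.0388 by permutation; rho 0.618, adjusted p = 0.0502), Batf3 one of 0.708, Itgax one of 0.616 and Cd209a one of 0.611, while Fscn1 was at -0.652.

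The endothelial list gave the highest r of Zbtb46, 0.902 (permutation p = 0.00466, adjusted p = 0.0251), but its rho was 0.497 (adjusted p = 0.126 by permutation) and r was 0.264 without the 3 tumours. That relation rested on the tumours set apart. Itgax had an r of 0.673 with the same list and a rho of 0.303 (adjusted p = 0.413 by permutation). The epithelial list of keratins, Cdh1 and Epcam varied widely in these tumours (mean log2 CPM -1.24 to 6.18). With this list r was 0.762 for Batf3, 0.801 for Itgax, 0.598 for Cd209a and -0.716 for Fscn1, all past an adjusted permutation p of 0.05. Xcr1 had an r of 0.540 and Siglech one of 0.511 with the same list, and neither passed. Without the 3 tumours these were 0.685 and 0.668.

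**Figure D5:**
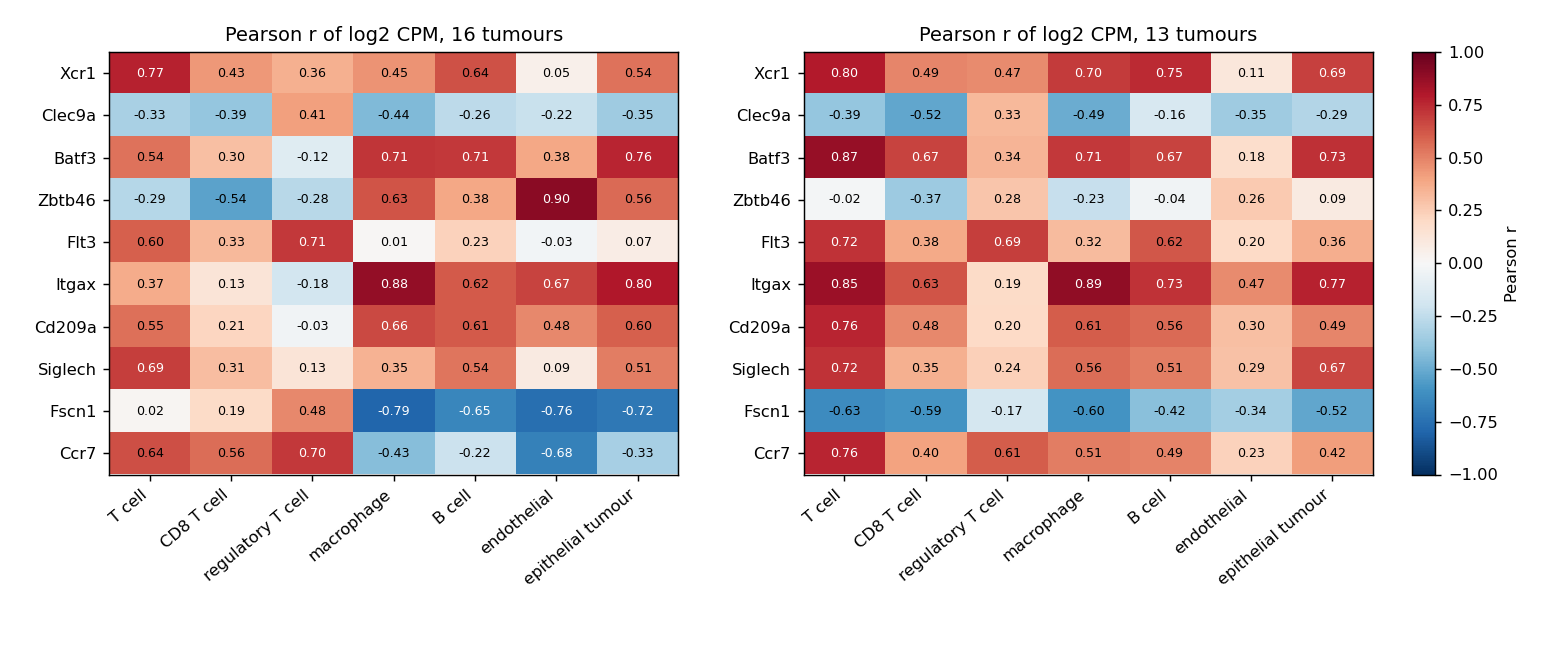
Pearson r of log2 CPM between each gene (rows) and the mean of each cell type list (columns) over all 16 tumours (left) and over the 13 tumours left after removing the 3 that stood apart (right), with r written in each cell. The r of Itgax with the T cell list goes from 0.37 to 0.85 between the panels, and that of Zbtb46 with the endothelial list from 0.90 to 0.26.

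Among the 45 pairs of members 5 passed an adjusted permutation p of 0.05. Xcr1 and Siglech were the closest, with r of 0.837 (permutation p = 8e-05, adjusted p = 0.0036), rho of 0.735 (permutation p = 0.00176, adjusted p = 0.0271), 0.779 without the 2 farthest tumours, and 0.945 within anti-PD-1 and 0.788 within IgG2a. Batf3 and Fscn1 ran against each other, with r of -0.732 (permutation p = 0.0003, adjusted p = 0.00675) and rho of -0.741 (permutation p = 0.00169, adjusted p = 0.0271). Itgax, Cd209a and Batf3 formed the other 3 pairs, with r of 0.726 for Itgax and Cd209a, 0.712 for Batf3 and Cd209a and 0.70 for Batf3 and Itgax (adjusted p = 0.0196 for each, by permutation). The 2 genes listed for mature cells had an r of 0.620 and a rho of -0.082, and r was -0.549 without the 3 tumours, so Fscn1 did not track Ccr7.

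The cDC1 receptors Xcr1 and Clec9a did not vary together: r was -0.040 (permutation p = 0.883) and rho 0.021, with -0.014 without the 3 tumours. Of 12 other cDC1 genes, 3 reached an r of 0.5 with Xcr1 (Cadm1 at 0.549, Gcsam at 0.545 and Naaa at 0.537), where 3.54% of all genes did so. With Clec9a 0 of 12 did so, where 5.42% of all genes did, and Id2 was at -0.602. These comparisons were chosen after the member pairs had been seen.

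Clec9a instead followed Clec1a, the gene next to it on chromosome 6 (129424772 to 129452000, minus strand), whose annotated end lies 8 bases from that of Clec9a on the opposite strand. Clec1a encodes a lectin-like receptor and ran from 14.2 to 58.7 CPM with a median of 34.0. Over the tumours r was 0.866 (permutation p = 2e-05) and rho 0.915 (permutation p = 1e-05, the smallest that 100000 resamples can give), with 0.891 without the 2 farthest tumours, 0.922 without the 3 and 0.857 within each group. The library kit kept no strand, so a read past the end of Clec1a cannot be told from a read of Clec9a, and the part of such reads in the Clec9a level was not tested. Clec9a also overlaps Clec1b by 474 bases on the same strand; Clec1b was at a median of 0.176 CPM and had an r of 0.081. The pair with Clec1a was likewise chosen after its value was seen.

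For each member the genes of most similar pattern were sought among 11726 protein-coding genes, by Pearson r over the 16 tumours and with no test. Xcr1 was nearest to Gbp2b at 0.864, Plbd1 at 0.843 and Klrk1 at 0.838, where Gbp2b is an interferon-inducible guanylate-binding protein and Klrk1 the activating receptor NKG2D of natural killer and T cells. Siglech was nearest to H2-DMb2 at 0.817, Slamf6 at 0.790 and Ptprcap at 0.779, where H2-DMb2 helps to load peptides on MHC class II. Flt3 was nearest to the costimulatory receptor Cd27 at 0.813, Cdh24 at 0.793 and the T cell adaptor Grap2 at 0.791. Ccr7 was nearest to Lmnb1 at 0.857, the cytotoxic granule protease Gzmb at 0.841 and Sectm1a at 0.833.

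Batf3 was nearest to the leukocyte actin regulator Coro1a at 0.940, Slamf9 at 0.929 and Adap1 at 0.918. Cd209a was nearest to Gdf3 at 0.884, the lymphocyte sphingosine phosphate receptor S1pr4 at 0.852 and Tspyl3 at 0.839. Itgax was nearest to Fam83f at 0.963, Fam107b at 0.957 and Rassf2 at 0.952. Zbtb46 was nearest to Pxmp4 at 0.971, Sft2d2 at 0.963 and Dlc1 at 0.960, which fell to 0.801, 0.836 and 0.721 without the 3 tumours. Fscn1 was nearest to Usp10 at 0.980, Nono at 0.971 and the cell cycle transcription factor Foxm1 at 0.966, which fell to 0.777, 0.597 and 0.560. After Clec1a, Clec9a was nearest to Capn5 at 0.861 and Cep95 at 0.855.

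Other genes linked to the same subsets were read in 6 lists, each with 0 calls by edgeR at an adjusted p of 0.05. For the counts of each list below, the shares over all 16154 genes tested were 11.4% at an unadjusted p under 0.05 and 43.1% with a higher estimate. Clec4a4, Cd300c, Ccl17 and Ccl20 were too low to be tested. Which cells gave the reads of the listed genes was not tested, so their estimates describe whole tumours and not a subset. Of 12 cDC1 companions 3 had a higher and 9 a lower estimate under anti-PD-1, a median estimate of -0.14 (log2 fold change) and 2 at an unadjusted p under 0.05. These were Wdfy4, which cDC1 need for cross-presentation, at -0.40 ± 0.16 (SE), and Id2, a lineage regulator, at 0.50 ± 0.23 (SE). Wdfy4 lay below its IgG2a median in 7 of 8 treated tumours and Id2 above its own in 5 of 8. Both had an edgeR adjusted p of 0.434. Id2 was highest in anti-PD-1 replicate 6, at 84.6 CPM against 59.4 in the next tumour. When each tumour was left out, the estimate of Id2 ran from 0.28 to 0.57 and that of Wdfy4 from -0.47 to -0.27. Tlr3, which senses double-stranded RNA, was at -0.27 ± 0.16 (SE) and Cd24a at -1.99 ± 1.11 (SE), the latter 1.72 without the 3 tumours.

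Of 9 cDC2 companions tested, 3 had a higher and 6 a lower estimate, with 2 at an unadjusted p under 0.05. The lectin gene Clec10a was at -2.71 ± 1.03 (SE), but IgG2a replicate 7 alone held 346 CPM of it against 38.3 in the next tumour, and the estimate was -0.34 without that tumour. The transcription factors Klf4 and Irf4 were at -0.86 ± 0.36 and -1.07 ± 0.55 (SE) and went to -0.26 and -0.13 without it. Tnfsf9, the ligand of 4-1BB, was at 0.56 ± 0.33 (SE), and at 0.27 without anti-PD-1 replicate 1, its highest tumour.

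Of 12 plasmacytoid companions tested, 5 had a higher and 7 a lower estimate, with 2 at an unadjusted p under 0.05. Cox6a2, at -4.92 ± 1.55 (SE), is also a muscle gene, and IgG2a replicate 3, the tumour with the high skeletal muscle list, held 179 CPM of it against 1.85 in the next tumour. Without IgG2a replicate 3 the estimate was 0.58. The nucleic acid sensors Tlr7 and Tlr9 were at -0.73 ± 0.32 and -0.64 ± 0.34 (SE), and all 8 treated tumours lay below the IgG2a median of Tlr9. That median was 25.84 CPM, close above the highest treated tumour at 25.65. The groups overlapped for Tlr9, at 2.09 to 25.65 CPM under anti-PD-1 and 13.74 to 38.1 under IgG2a. Tlr7 was at -0.28 without IgG2a replicate 7, where Tlr9 was at -0.65. Tcf4, the lineage factor of plasmacytoid cells, was at -0.20 ± 0.12 (SE). Tcf4 averaged 115 CPM under anti-PD-1 and 132 under IgG2a, against 0.855 and 0.757 for Siglech, while the companion Spib averaged 0.702 and 0.835.

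Of 15 genes of mature and migratory cells tested, 9 had a higher and 6 a lower estimate, with 1 at an unadjusted p under 0.05. This was the transporter gene Slco5a1 at -1.97 ± 0.89 (SE), whose value was 0.14 without IgG2a replicate 3. The costimulatory receptor Cd40 was at 0.32 ± 0.20, the signalling adaptor Traf1 at 0.25 ± 0.17 and the maturation marker Cd83 at -0.64 ± 0.40 (SE), which became -0.16 without IgG2a replicate 7. Of 7 MHC class II genes, 6 had a higher and 1 a lower estimate, with 0 at an unadjusted p under 0.05. The lower was Ciita, the master activator of these genes, at -0.44 ± 0.43 (SE), and H2-DMb1 was at 0.28 ± 0.31 (SE).

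Among 7 ligands and growth factors tested, 5 had a higher and 2 a lower estimate under anti-PD-1. The chemokine Ccl4 had mean levels of 25.5 ± 21.9 CPM in treated and 11.5 ± 2.65 CPM in control tumours (SD, n = 8 each), with a log2 fold change of 1.14 ± 0.38 (SE), an unadjusted p of 0.00785 and an edgeR adjusted p of 0.434. It lay above the IgG2a median in 7 of 8 treated tumours and its estimate was 1.01 without the 3 tumours. It was 0.69 without anti-PD-1 replicate 1, which held 73.0 CPM of Ccl4 against 43.2 in the next tumour, and 0.44 by limma-voom with quality weights. Csf2, the growth factor GM-CSF, was at 1.54 ± 0.62 (SE) with an unadjusted p of 0.0246, highest in anti-PD-1 replicate 6. Its estimate was 0.87 without the 3 tumours and 0.40 by limma-voom with quality weights.

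For the receptors among the members, the ligands showed estimates close to 0 or wide errors. Flt3l, the ligand of FLT3, had mean levels of 6.39 ± 2.12 CPM in treated and 5.76 ± 1.44 CPM in control tumours (SD, n = 8 each), and its log2 fold change was 0.15 ± 0.21 (SE). Xcl1, the ligand of XCR1, averaged 0.861 ± 0.687 and 0.759 ± 0.654 CPM, a log2 fold change of 0.18 ± 0.48 (SE) that was -0.29 without anti-PD-1 replicate 5. The CCR7 ligands Ccl19 and Ccl21a were at -1.04 ± 0.92 and -2.46 ± 1.31 (SE), and both had no reads in at least 1 tumour of each group. Ccl21a was highest in IgG2a replicate 3, at 13.3 CPM, and its estimate was 0.18 without the 3 tumours. Ccl21a has near-identical copies, so its level is uncertain.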

How the data were processed

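RNA of 16 tumours was sequenced with poly(A) enrichment and a non-directional kit, per the labels' protocols. The deposited tables hold estimated counts of reads per transcript and the authors' TPM, per the file headers. GRCm38, edgeR and limma appear in the submitters' processing notes, and the quantifier is not given in the sources used here. Transcripts were matched by identifier to GENCODE vM21 (114200 of 115088, 47311 genes; at most 0.217% of reads unmatched). Estimated counts were summed per gene, rounded, filtered with filterByExpr (minimum count 10, minimum total 15), which left 16154 genes and all 10 members, scaled with TMM and tested with edgeR 4.0.16 (robust quasi-likelihood, R 4.3.3) with Benjamini-Hochberg adjustment over all genes at 0.05. The labels pair no tumours. The log2 CPM used a prior count of 2, and intervals are at 95%. A cell type list is the mean log2 CPM of its tested genes, with permutation tests of r in Python 3.11.15. The T cell list is used only as a mean, and 1 of its genes is not reported here.

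Named genes were all members, up to 4 genes of smallest unadjusted p in each companion list, the ligands of the member receptors, and for each member the 3 genes of highest r among tested protein-coding genes (average log2 CPM of 0 or more, no Gm number or Rik name). The members and lists were chosen with earlier results of these data known. Alternatives were DESeq2 1.42.0, limma-voom (limma 3.58.1) with and without quality weights, other scaling factors, filters and pseudocounts, a covariate for the animal number range, protein-coding genes alone, leaving out each tumour and leaving out the 3 that stood apart. Those of the companion genes were added after seeing the data. On simulated counts edgeR called 0.019% of 15954 unchanged genes; the permutation test of r over 16 values passed at 0.05 in 4.0% of draws with no relation, 49.5% at a true r of 0.5 and 90.0% at 0.7.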

Additional observations from a re-analysis of the deposited data

Results flagged for a closer look

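Within each group of 8 tumours the gap between the most extreme tumour and the next, divided by the range of the group in log2 CPM, was compared with Dixon's critical value of 0.526. Chance passes it in about 1 in 20 groups, and 5 of the 20 groups of members passed. Of these, 4 were IgG2a replicate 7, which was highest for Zbtb46 (ratio 0.751) and Itgax (0.531) and lowest for Fscn1 (0.729) and Ccr7 (0.58) in its group. The fifth was anti-PD-1 replicate 6, lowest for Fscn1 (0.644), the tumour with 38993 transcripts detected. IgG2a replicate 7 had a macrophage list 2.02 and an endothelial list 3.62 log2 units over the median tumour, with a T cell list at -0.74 and a proliferation list at -1.53 from it. The part of these differences in the levels of the 4 genes was not tested.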

How the results depend on the processing

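In every alternative run 0 members were called. DESeq2 called 4 genes in all. The number of members with a higher estimate was 5 by limma-voom, and ranged from 2 to 5 when each tumour was left out. Members related to the T cell list numbered 7 without the 3 tumours and 1 to 6 when each tumour was left out, the 1 without anti-PD-1 replicate 5 and 2 without IgG2a replicate 1, IgG2a replicate 8 or anti-PD-1 replicate 4. Pairs that varied together numbered 18 without the 3 tumours and 2 to 13 when each was left out, the 2 without anti-PD-1 replicate 5 and the 13 without IgG2a replicate 7. The steps of the TPM order that passed were 6 without the 3 tumours.

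Some estimates turned sign, both small ones and those that rested on 1 tumour. By limma-voom the log2 fold change was 0.049 for Itgax and 0.13 for Ccr7, and with quality weights 0.0834 for Xcr1, 0.14 for Itgax, -0.0282 for Fscn1, 0.36 for Cd24a, 0.57 for Clec10a, 0.21 for Cox6a2 and -0.0126 for Cd40. By DESeq2 it was 0.55 for Cox6a2 and 0.15 for Slco5a1. Without the 3 tumours it was 0.24 for Itgax, -0.0467 for Fscn1, 1.72 for Cd24a, 0.55 for Clec10a, 0.67 for Cox6a2, 0.0406 for Slco5a1 and 0.18 for Ccl21a. When each tumour was left out it ran from -0.21 to 0.29 for Itgax, -0.0693 to 0.0815 for Fscn1, -0.25 to 0.19 for Ccr7, -0.0258 to 0.71 for Batf3, -0.27 to 0.0422 for Xcr1, -5.26 to 0.58 for Cox6a2, -2.30 to 0.14 for Slco5a1, -1.38 to -0.17 for Cd209a, -0.45 to -0.10 for Flt3, -0.34 to -0.10 for Clec9a, 0.02 to 0.40 for Siglech, -0.73 to -0.18 for Zbtb46, -0.29 to 0.64 for Xcl1 and -0.0019 to 0.24 for Flt3l. The r of Fscn1 with the T cell list was -0.032 on log2(TPM + 1), -0.626 without the 3 tumours and -0.389 to 0.122 when each was left out. The cause was not tested. Cd209a had too few reads for a minimum count of 50. At 1095, 891 and 773 reads over all tumours, Xcr1, Siglech and Cd209a are the members that depth limits most.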
